A study of Sus scrofa domesticus with 4 samples.

Results

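DDO encodes D-aspartate oxidase, and its transcript was followed in anterior pituitaries from 8 mature gilts (female pigs before a first litter) bred as Large White x Polish Landrace crosses. Of the 43603 probes on the array that were not controls, 3 carried the RefSeq mRNA accession of pig DDO: A_72_P223197, A_72_P444466 and A_72_P492049. The 4 pregnant gilts had been bred naturally and were collected on days 15 to 16 of pregnancy, which was established by the presence of conceptuses. The 4 cyclic gilts were collected on days 15 to 16 of the estrous cycle, judged from the ovaries. Every one of the 4 arrays, read in 2 colours, paired the RNA of a pregnant animal with that of a cyclic one. By the label fields of the samples, pregnant RNA carried the green dye Cy3 on arrays 1 and 3 and the red dye Cy5 on arrays 2 and 4. The text of the labelling protocol instead names Cy3 for pregnant RNA throughout, and values under that reading are given for DDO and for the listed genes and markers whose call it changed. DDO was chosen with its pregnant over cyclic ratio on these arrays known, so that ratio is given as a description, with no test. The samples are labelled as separate animals.

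D-aspartate oxidase is a flavin enzyme of the peroxisome. It removes the amino group of acidic D-amino acids, D-aspartate first among them, and yields oxaloacetate, ammonia and hydrogen peroxide. Its relative DAO, D-amino acid oxidase, acts on neutral D-amino acids. D-aspartate occurs in nervous and endocrine tissue, the pituitary included, where it binds the glutamate site of NMDA receptors, and it has been linked to the release of prolactin and luteinizing hormone. In a whole lobe, fewer cells that express a gene and less of its RNA per cell cannot be told apart.

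Between 50.4% and 60.4% of spots were well above background in the pregnant channels and between 52.5% and 66.5% in the cyclic channels, and 0 spots were saturated. Ratios are log2 of pregnant over cyclic after background correction and loess normalization within each array. Of 43603 probes, 25144 were kept, being well above background in at least 4 of 8 channels and having a ratio on every array. The brightest kept probe stood for a gene, which left 18858 features, and the number of arrays limits the precision of every value.

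A_72_P223197 had spots at 9.32 to 45.2 times the local background and was well above background in 8 of 8 channels. It stands for the gene where 1 value per gene is given. On array 1 its spot read an intensity of 376 for the pregnant animal (background 28) and 1718 for the cyclic animal (background 38). On array 2 the readings were 703.5 (background 33) and 807 (background 36.5). On array 3 they were 359 (background 38.5) and 1420 (background 48). The cyclic animal, in red on arrays 1 and 3 and in green on array 2, was the brighter one on these 3 arrays before any normalization. Array 4 went the other way before normalization, with 1349 for the pregnant animal (background 35) in red and 881 for the cyclic animal (background 32) in green.

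Once each array had been normalized, the pregnant animal was the lower of the pair on 4 of 4 arrays for this probe. The log2 ratios were -0.99, -0.29, -1.09 and -0.34 on arrays 1 to 4. As folds, the cyclic animal had 1.98, 1.22, 2.14 and 1.26 times the signal of its pregnant partner. The limma estimate was -0.68 ± 0.10 (SE, 4 arrays, with a gene-specific dye term), a cyclic signal 1.60 times the pregnant one, and the spread between arrays was 0.42 (SD, n = 4). Without the dye term, which takes up the gap between arrays 1 and 3 and arrays 2 and 4, the SE was 0.17. Of all features, 7.43% had ratios below 0 on 4 of 4 arrays and 6.42% had ratios above 0 on 4 of 4, and since DDO was chosen on this contrast nothing is read from that share.

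Normalized levels of the 8 animals overlapped between the groups. On the log2 intensity scale, after the arrays had been brought to a common distribution of mean brightness, A_72_P223197 stood at 9.07, 9.36, 9.04 and 9.98 in the pregnant animals of arrays 1 to 4. Their mean level was 9.36 ± 0.44 (SD, n = 4). In the cyclic animals it stood at 10.06, 9.65, 10.13 and 10.32, with a mean level of 10.04 ± 0.28 (SD, n = 4). The order from the lowest was the pregnant animals of arrays 3, 1 and 2, the cyclic animal of array 2, the pregnant animal of array 4 and the cyclic animals of arrays 1, 3 and 4. The pregnant animal of array 4 lay above the cyclic animal of array 2 by 0.33. Neighbours in this order lay 0.03 to 0.33 apart, each gap smaller than the SD of the pregnant group. The scanner software's own error for the ratio of this spot was 0.21 to 0.23 on the log2 scale, below the size of the ratio on each array.

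The result depends on which dye assignment holds. If pregnant RNA carried Cy3 on every array, as the protocol text reads, arrays 2 and 4 change sign to 0.29 and 0.34 while arrays 1 and 3 stay at -0.99 and -1.09. The mean is then -0.36 ± 0.78 (SD, n = 4), with 2 of 4 arrays below 0, and the group cannot be told apart from the dye. The authors' deposited table of log2 ratios equals the scanner software's processed ratios turned by the label fields, for all 43553 probes compared, within 0.001. In the authors' deposited table A_72_P223197 stands at -0.88, -0.31, -1.20 and -0.47 on arrays 1 to 4.

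The other probes were dim, and their mean ratios were smaller in size and did not keep one sign over the arrays. A_72_P444466 had spots at 2.35 to 4.75 times the local background and was well above background in 8 of 8 channels. After its local background was taken off, it read 65, 78, 54.5 and 126 in the pregnant animals and 159, 110.5, 110.5 and 103 in the cyclic animals of arrays 1 to 4. Its log2 ratios were -0.22, 0.11, -0.57 and -0.085, so 3 of 4 arrays were below 0, with a mean of -0.19 ± 0.29 (SD, n = 4). A_72_P492049 had spots at 2.20 to 4.03 times the local background and was well above background in 7 of 8 channels. The channel it missed was the pregnant one of array 1, so its pregnant level there is only a bound. Net of background it read 42, 56.5, 57.5 and 79 in the pregnant animals and 102, 91, 96 and 75 in the cyclic animals. Its log2 ratios were -0.36, 0.08, -0.41 and -0.05, with 3 of 4 arrays below 0 and a mean of -0.18 ± 0.24 (SD, n = 4).

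All 3 probes had their lowest ratio on array 3 and their highest on array 2. The dim probes were above 0 on array 2, where the bright probe was at -0.29. On that array the authors' deposited table gives 0.24 for A_72_P444466 and 0.21 for A_72_P492049, each within the scanner software's error for its spot of 0.25 and 0.28. On array 4 the deposited ratio of A_72_P492049 was -0.04, also within its error of 0.34. The remaining deposited ratios of the dim probes, all below 0, exceeded their errors. The offset of 50 added to every channel pulls dim ratios toward 0 by construction. With an offset of 16 the means of the dim probes were both -0.27, and from processed signals they were -0.37 and -0.33, against -0.71 for the bright probe. Which stretch of the DDO transcript each probe matches is not given in the sources used here.

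The dye effect of DDO was not itself used to choose it and was tested. The test shares its array ratios and residual spread with the ratio DDO was chosen on, so its p-values are not free of that choice. Red over green for the bright probe was 0.99 and 1.09 on arrays 1 and 3, where red was the cyclic animal, and -0.29 and -0.34 on arrays 2 and 4, where red was the pregnant animal. The mean pregnant over cyclic ratio was thus -1.04 on the arrays with pregnant RNA in Cy3 and -0.31 on those with pregnant RNA in Cy5. The dye coefficient was 0.36 ± 0.10 (SE) toward red. It did not pass limma's test with Benjamini-Hochberg adjustment over all features (adjusted p = 0.494, unadjusted p = 0.0118). Of all features, 51.7% had a dye coefficient above 0, 10% had an unadjusted p under 0.05 for the dye and 0 passed adjustment, and limma's adjusted p for DDO ran from 0.0295 to 0.891 over the alternatives. The dim probes had dye coefficients of 0.20 ± 0.11 and 0.20 ± 0.10 (SE), with limma adjusted p of 0.555 and 0.530.

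Over 15 alternative settings the DDO estimate was below 0 in 15, from -0.74 to -0.35, but not all of them could move it. Dropping the dye term, fitting separate channels or changing the filter on dim probes kept the same ratios and left it at -0.68. The single dye assignment was among them, at -0.36 ± 0.29 (SE), with only 2 of 4 arrays below 0. That value is the dye coefficient of the main fit with its sign turned. The estimate was smallest in size, at -0.35 ± 0.10 (SE), when the mean of the kept probes stood for the gene in place of the brightest. With median centring in place of loess the estimate was -0.74 ± 0.14 (SE), but single arrays of the bright probe stood at -1.49, -0.09, -1.64 and 0.25, and the dye coefficient passed the threshold at 0.82 ± 0.14 (SE, limma adjusted p = 0.0295). That setting called 3390 features for the dye, 37.7% of all features having an unadjusted p under 0.05. With background parameters estimated from all spots the bright probe stood at -0.85, -0.06, -1.08 and -0.21. In all 6 ways of preparing the values, arrays 1 and 3 were lower than arrays 2 and 4 for each of the 3 probes. With any single array left out the estimate stayed between -0.70 and -0.65. These fits kept the dye term and weighted both dye orientations alike, and arrays of the same orientation had like ratios, so the range could not be wide.

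Genes that share the substrates, products or compartment of D-aspartate oxidase were described as lists. Of 130 listed genes besides DDO, 36 had a probe with a gene symbol that passed the filter on dim probes, 19 with an estimate above 0 and 17 below 0. By a looser rule (a fold of 1.2 or more and a limma p, not adjusted, under 0.05), 0 were higher and 2 were lower in pregnant animals, which is 5.56% of those tested. Over all features the looser rule called 7.02%, 2.93% higher and 4.09% lower, so the share among the listed genes was near the background. None of the 36 passed limma's adjusted threshold (0 of 36, smallest adjusted p = 0.647, 2 at an unadjusted p under 0.05, against 7.22% of all features). The fit of separate channels also passed 0 of them. Over all features limma passed 0 of 18858, with 1361 at an unadjusted p under 0.05, while the fit of separate channels passed 3 and an offset of 16 passed 2. The looser count of all features was 553 higher and 771 lower, against 203 and 834 with median centring and 142 and 341 with background parameters from all spots.

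Among enzymes of aspartate, glutamate and D-amino acids, 8 genes besides DDO were tested, 2 with an estimate above 0 and 6 below 0, at a median of -0.07 against -0.02 over all features. None met the looser rule (0 of 8 at an unadjusted limma p under 0.05). The aspartate aminotransferases, which interconvert L-aspartate and oxaloacetate, stood at 0.02 ± 0.13 (SE) for the cytosolic GOT1, with 1 other kept probe of the opposite sign, and at -0.07 ± 0.10 (SE) for the mitochondrial GOT2. The malate dehydrogenases, which act on oxaloacetate, stood at -0.08 ± 0.12 (SE) for MDH1 and at -0.32 ± 0.22 (SE) for MDH2. MDH2 stood at -1.23 on array 1, with the other arrays between -0.11 and 0.03. GAD2, a glutamate decarboxylase, stood at -0.30 ± 0.13 (SE), with -0.38 and -0.91 on arrays 1 and 3 and 0.07 and 0.05 on arrays 2 and 4, the same split by dye orientation that DDO shows. GAD2 gained the looser call in 6 of 15 alternatives, with -0.87 from processed signals, and ran from -0.87 to -0.16 over them.

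GLUD1, glutamate dehydrogenase, stood at -0.13 ± 0.16 (SE), with 3 other kept probes of the opposite sign. GLUL, glutamine synthetase, stood at -0.07 ± 0.11 (SE), and ADSL, which cleaves adenylosuccinate, at 0.07 ± 0.13 (SE). The relative of DDO, DAO, had 2 probes, and neither was well above background in any of the 8 channels (0 of 8 each). ASPA, which cleaves N-acetylaspartate, and GAD1, the other glutamate decarboxylase, were likewise well above background in 0 of 8 channels. No ratio is given for these genes.

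Receptors and carriers of acidic amino acids were thinly covered, with named probes for 2 of 22 listed genes and for none of the NMDA receptor subunits. The glutamate and aspartate transporters SLC1A1 and SLC1A3 stood at 0.14 ± 0.17 (SE) and 0.10 ± 0.10 (SE). SLC1A1 was at -0.50 on array 3 and between 0.28 and 0.40 on the others, and its 1 other kept probe had the opposite sign. The SLC1A3 probe was dim, well above background in 4 of 8 channels. All 4 ratios lay above 0, the one of array 2 at 0.31 and the others at 0.06 or less, and its estimate ran from 0.0088 with background parameters from all spots to 0.39 from processed signals. Neither gene met the looser rule.

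Peroxisomal genes did not share one direction. Of 12 tested enzymes of the peroxisomal matrix, 8 had an estimate above 0 and 4 below 0, at a median of 0.02. ECI2, an enoyl-CoA isomerase of fatty acid oxidation, was lower by the looser rule at -0.45 ± 0.11 (SE). Its ratios were -0.24, -0.71, -0.46 and -0.38, all below 0, and its limma adjusted p was 0.647. CROT, a carnitine octanoyltransferase, stood at 0.32 ± 0.13 (SE), with -0.18 and -0.16 on arrays 1 and 3 against 1.11 and 0.52 on the other arrays.

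Among genes for building peroxisomes and moving proteins and lipids into them, 4 of 28 were tested, 2 above 0 and 2 below 0, and 0 met the looser rule. PEX6, an ATPase that recycles the import receptor, stood at -0.32 ± 0.15 (SE), with ratios of -0.28, -0.84, -0.07 and -0.11. ABCD3, a membrane transporter, stood at 0.15 ± 0.15 (SE) and PEX2, a ubiquitin ligase of the import machinery, at -0.09 ± 0.10 (SE). No probe was named for PEX5, the receptor for the import signal of matrix enzymes.

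Enzymes that remove hydrogen peroxide or superoxide were evenly split, with 6 of 12 above 0 and 6 below 0 at a median of -0.00163. GPX3, the secreted glutathione peroxidase, was lower by the looser rule at -0.58 ± 0.19 (SE). Its ratios were -0.72, -1.16, -0.15 and -0.28, all below 0, its limma adjusted p was 0.647, and its other kept probes had the same sign. CAT, the peroxisomal catalase that destroys the peroxide DDO forms, stood at 0.13 ± 0.12 (SE), with 3 of 4 arrays above 0 and 1 of its other kept probes of the opposite sign. TXNRD1, thioredoxin reductase, stood at 0.18 ± 0.10 (SE), although 3 of its other kept probes had the opposite sign, and GPX4, the phospholipid peroxidase, stood at -0.16 ± 0.10 (SE). ECI2 and GPX3 both lost the looser call without array 2, at -0.36 each, and when all spots set the background parameters, at -0.19 and -0.50. GPX3 also lost it without array 1 (-0.43), and ECI2 without array 3 (-0.39). Under the single dye assignment of the protocol text ECI2 and GPX3 stood above 0, at 0.10 and 0.14, while CROT at -0.49 and GLUD1 at -0.43 were lower and GNPAT, an enzyme of ether lipid synthesis, at 0.28 was higher by the looser rule. That reading changed the sign of 19 of the 36 estimates, so directions of uncalled genes hold for the label fields alone.

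Of the 2405 other tested features with a gene symbol, those with array ratios nearest to DDO by root mean square difference were TF, TGFBR3, SPARC, PIGR and MGP. TF, the iron carrier transferrin, differed from DDO by 0.25 and stood at -1.09, 0.19, -1.03 and -0.34. TGFBR3, the betaglycan coreceptor, differed by 0.26 and SPARC, a matricellular glycoprotein, by 0.27. PIGR, the receptor that carries polymeric immunoglobulins across epithelia, differed by 0.29 and MGP, a matrix protein that restrains calcification, by 0.35, where the median difference over these features was 0.81. In all 5 genes arrays 1 and 3 were lower than arrays 2 and 4, so the likeness includes the dye pattern, and their dye coefficients ran from 0.25 for TGFBR3 to 0.60 for MGP.

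Over the 8 animals, which share arrays in pairs, Pearson r between the level of DDO and that of the gene was 0.76 for TF, 0.65 for SPARC, 0.40 for PIGR, 0.19 for MGP and 0.01 for TGFBR3. TF had 1 other probe of opposite sign, and with the mean of its kept probes it stood at -0.03 in place of -0.57. Of the 10 protein-coding genes that flank DDO in the RefSeq gene order of the Sscrofa11.1 assembly, FIG4 to METTL24 on one side and SLC22A16 to RPF2 on the other, 0 had a named probe here.

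The tissue label was checked against its defining markers. All 7 hormone genes of the anterior lobe (GH1, PRL, POMC, CGA, LHB, FSHB and TSHB) were well above background in 8 of 8 channels. OXT, made in hypothalamic neurons that end in the posterior lobe, was also well above background in 8 of 8 channels, PCSK2 of the intermediate lobe in 7 and AVP in 3. On arrays 1 to 4 OXT stood at -0.67, -0.62, 0.02 and -0.16 and PCSK2 at 1.43, -0.55, -0.82 and 1.56. Summed over OXT and PCSK2, the normalized intensity was 3505 to 9542 in pregnant and 5008 to 9999 in cyclic animals. That sum is mostly OXT, at a mean log2 level of 12.57 against 7.63 for PCSK2. Summed over the 7 hormone genes it was 872000 to 1389000 in pregnant and 1095000 to 1662000 in cyclic animals, and the mean ratio of these genes was -0.71, 0.84, -0.68 and -0.68 on arrays 1 to 4. TSHB stood at -1.67, 4.48, -3.02 and -4.20, and without it the means of the other 6 were -0.55, 0.23, -0.29 and -0.09. LHB, the beta subunit of luteinizing hormone, was lower by the looser rule at -0.42 ± 0.15 (SE, limma adjusted p = 0.647), with -0.78, -0.60, -0.19 and -0.12. Prolactin, PRL, stood at -0.77, -0.38, 0.19 and -0.29.

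Markers of other cell types were given beside DDO by their mean ratio on arrays 1 to 4. For fibroblasts, with 3 of 5 markers tested (COL1A2, DCN and LUM), the means were -0.95, 0.05, -0.04 and 0.11. The means of arrays 2 to 4 average ratios of opposite sign. COL1A2 stood there at -0.81, 0.40 and -0.57, DCN at 0.53, -0.33 and 0.55 and LUM at 0.43, -0.20 and 0.35. Their summed normalized intensity was 8126 to 12860 in pregnant and 9321 to 15450 in cyclic animals. LUM was well above background in 7 of 8 channels, and 7 of its other kept probes had the opposite sign. For endothelium, with 3 of 5 markers tested (PECAM1, CDH5 and VWF), the means were -0.09, 0.49, -0.30 and 0.02. CDH5 stood at 1.41 on array 2, and its 1 other kept probe had the opposite sign. For macrophages, with 6 of 8 tested (CD14, CD163, C1QA, C1QB, C1QC and AIF1), the means were 0.04, 0.12, -0.02 and -0.26. AIF1 was higher by the looser rule at 0.38 ± 0.14 (SE, limma adjusted p = 0.647), with 0.37, 0.80, 0.23 and 0.13. Of the 6 tested macrophage markers, AIF1 included, 2 had an estimate above 0 and 4 below 0, at a median of -0.06. SOX2, the 1 tested marker of 5 for folliculostellate and stem cells, stood at -0.04, -0.45, 0.00253 and -0.07, and red blood cell markers had no named probe (0 of 4). Under the single dye assignment LHB at -0.06 and AIF1 at -0.08 lost the looser call. By the same rule POMC at -0.59, CGA at -0.64, DCN at -0.64 and LUM at -0.47 were then lower and C1QA at 0.29 was higher. COL1A2, the other tested fibroblast marker, stood at 0.25 under that assignment and was not called. The part of any cell type in the DDO ratio was not tested.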

How the data were processed

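The scanner output gives, per the file headers, the median intensity of spots and of the background around them in each channel (5 micron scans, Agilent Feature Extraction 10.7.3.1), with processed intensities and a log10 ratio whose error was turned to log2 here. The authors' deposited value table holds log2 ratios. How it was made is not given in the sources used here. It matched the processed intensities, and its medians per array were 0.150, -0.0102, 0.0650 and -0.0726.

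R 4.3.3 was used with limma 3.58.1. Files were read by jsonlite 2.0.0 and by data.table (version 1.17.8). The normexp method (offset 50) corrected the median foreground, its parameters estimated without spots marked as outliers. Loess with a span of 0.3 followed, with control spots at weight 0, and 26 to 63 outlier spots per array were left out. Levels of single animals came after Aquantile normalization. limma's lmFit and eBayes estimated pregnant over cyclic next to a dye coefficient for each gene, and Benjamini-Hochberg adjustment ran over 18858 features. Probes were named through RefSeq accessions (Sscrofa11.1), 6700 of 43603 with a symbol (3029 genes). The fit was tested on simulated data.

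Named genes were DDO, its relatives DAO and PIPOX (PIPOX had no named probe), the tested aspartate and D-amino acid enzymes, from each other list the members of the looser rule and the 3 of lowest p, CAT, PEX5, flanking genes and the 5 nearest genes. One gene that this rule names is not reported here. LHB, AIF1, PRL, TSHB, GNPAT and the markers called under the single dye assignment were singled out after their values were seen, as were the hormone means without TSHB and that reading of the markers. The gene, its lists and the rules were chosen with earlier results of these data known. All 4 arrays lay on 1 slide and in 1 scan, so no batch was fitted.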

Additional observations from a re-analysis of the deposited data

Results flagged for a closer look

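Among 28 sets of 4 array ratios examined (25 named genes and 3 DDO probes), 3 had 1 array far from the others by Dixon's criterion, where chance gives about 5%. MDH2 stood at -1.23 on array 1, with the other arrays between -0.11 and 0.03. SLC1A1 stood at -0.50 on array 3, with the others between 0.28 and 0.40. SLC1A3 stood at 0.31 on array 2, with the others between 0.01 and 0.06. None of the DDO probes was among them.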

How the results depend on the processing

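The DDO estimate moved by less than the spread between arrays (SD 0.42) in 15 of 15 alternatives, the single dye assignment (-0.36 ± 0.29, SE) among them. Fits without the dye term, of separate channels or with another filter on dim probes could not move it, as they kept the same ratios. With 1 array left out the DDO estimate ranged from -0.70 to -0.65. Its dye coefficient stayed above 0 in 13 of 13 alternatives and was called only with median centring (0.82), the limma adjusted p running from 0.0295 to 0.891, and it ranged from 0.34 to 0.39 with 1 array left out. The count of listed genes at the looser rule, 2 as reported, was 0 with background parameters from all spots, 4 with separate channels and 4 without a filter on dim probes, and ran from 0 (without array 2) to 6 (without array 4) with 1 array left out. Over all features that count, 1324 as reported, was 483 with background parameters from all spots and ran from 617 (without array 2, 355 higher and 262 lower) to 2175 (without array 4), and was 639 without array 1. With the single dye assignment 12 of 25 named genes changed sign, among them 3 that met the looser rule under one of the readings: ECI2 to 0.10, GPX3 to 0.14 and CROT to -0.49. The cause of these changes was not tested. The pairing of animals is the array itself, so every ratio is already paired. Fits without 1 array kept the dye term and so weighted the lone array of its dye orientation as much as the other 2 together. Signal over background limits the dim DDO probes.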

Other observations

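Taking Pearson r of log2 levels over the 8 animals as the measure of likeness gave other genes than the ratios did, and 0 of 5 were shared. The highest r with DDO were those of NRAP, a muscle-type anchoring protein (0.89), SEC61A1, a channel of the endoplasmic reticulum (0.87), BMPR1A, a BMP receptor (0.84), GSS, glutathione synthetase (0.84), and LRP8, an apolipoprotein E receptor (0.83). The median r over the 2405 features was 0.05. Animals share arrays in pairs and 8 points leave such values imprecise, so they are given as a description. The ratios of SEC61A1 were -0.34, -0.20, -0.32 and -0.21 on arrays 1 to 4, below 0 on 4 of 4 arrays, as were those of 7.43% of all features. NRAP, BMPR1A, GSS and LRP8 stood above 0 on array 4, at 0.10, 0.05, 0.10 and 0.16. These genes were picked for their likeness to DDO in the same animals, so nothing is read from the direction of their ratios.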
